A study of Mus with 5 samples.

Results

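In CD8 T cells cultured without retinoic acid (RA), 2019 of 15812 BATF peaks were weak, classed as intron or intergenic, and missing after RA. They make up 12.8% of the control list. The sites were chosen by the measured values themselves. Each is a control peak on chromosome 1 to 19, X or Y, with a -log10 p under 20, in the class intron or intergenic of the authors' annotation, and with no BATF RA peak within 5 kb. Their strength and their absence from the RA list are therefore described here and not tested. The control list holds 4384 weaker distal peaks in all, of which these sites are 46.1% (Wilson 95% confidence interval 44.6 to 47.5). Of the 2019, 1032 were classed as intron and 987 as intergenic. The detailed annotation still names a promoter for 20 of them, among them a site assigned to Tgfbr2.

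The cells were primary CD8 T cells, isolated as naive cells from the spleens of wild-type mice and activated in culture for 24 h with antibodies to CD3 and CD28 and with IL-2. After 24 h of rest in 100 U/ml IL-2 1 h of culture followed, either without RA (control) or with RA at 50 nM. ChIP-seq, in which an antibody pulls down the DNA bound by a protein, was then run for BATF and for the RA receptor RARα. The treatment labels name other interleukins than the culture protocol, which gives IL-2. Each of the 4 lists, for BATF and RARα in control and RA cells, was called on 2 pooled alignment files, and the sources used here do not say if these are separate cultures or repeat runs. A single file from normal rabbit IgG served as background for all lists, and it is not stated if its cells had RA. With 1 list per condition, replicate spread is unknown, no difference between conditions could be tested, and the intervals below cover counting error only.

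BATF is a small AP-1 protein that binds DNA with a JUN partner, and often together with IRF4 at composite AP-1 and IRF elements. In activated CD8 T cells it is known as a pioneer of the effector programme, and much of its binding lies in introns and between genes, where enhancers are found. In the control list here, weaker distal peaks made up 27.7%, stronger distal peaks 10.5% and weaker promoter peaks 37.7%. RARα is a nuclear receptor that binds DNA with RXR and exchanges corepressors for coactivators when it holds RA. Nuclear receptors are also known to act on AP-1 proteins without binding their own DNA elements.

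The BATF control pool held 23110180 fragments and the BATF RA pool 16424269, which is 71.1% of the control depth. As a check of the cell type, all 12 listed identity genes of CD8 T cells, such as Cd3e and Cd8a, had a BATF control peak, against 6 of 14 genes of other cell types. Csf1r, Lyz2, Foxp3 and Cd4 had none. Peaks are not expression, so this is a weak check.

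Across all classes, 30.1% of the 15810 control peaks on chromosomes had no RA peak within 5 kb. The share was 43.6% among weaker introns (41.6 to 45.6) and 49.0% among weaker intergenic peaks (46.8 to 51.1). It was 37.3% among weaker promoter peaks (36.1 to 38.5) and 11.5% among distal peaks with a -log10 p of 20 or more (10.1 to 13.1). Peak strength went with these shares in every class. For intergenic peaks the share was 62.0% at a -log10 p of 5 to 7, 44.6% at 10 to 15, 29.7% at 15 to 20 and 16.4% at 20 to 40. For introns the same bands gave 51.1%, 41.1%, 30.3% and 17.8%. No peak with a -log10 p of 80 or more was missing. Between 15 and 20 the distal classes stood above promoters, which had 21.1%, and at 5 to 7 introns and promoters (51.3%) were alike. These shares use the rule's own measures and are a description.

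**Figure D1:**
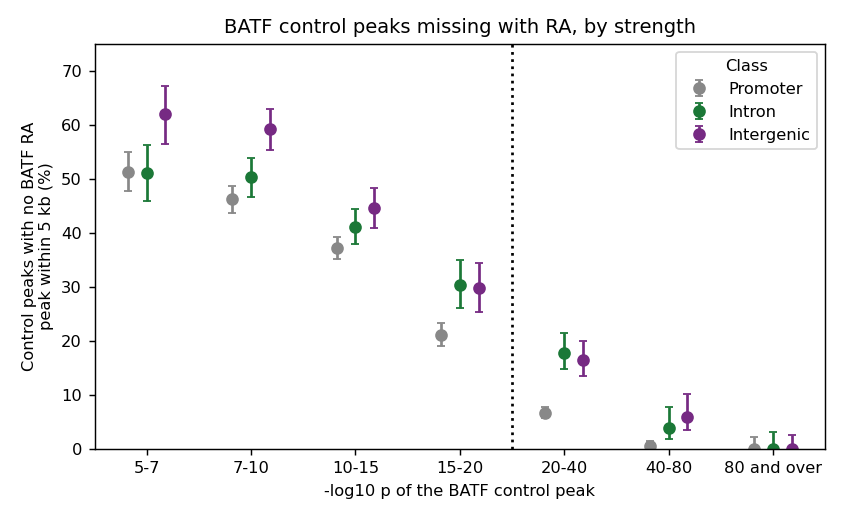
Share of BATF control peaks with no BATF RA peak within 5 kb (y, %) by band of -log10 p in the control (x), for promoter, intron and intergenic peaks. Points are shares with Wilson 95% intervals for counting error, and the dotted line marks the strength limit of 20, left of which the intron and intergenic peaks without an RA peak are the 2019 sites. Intergenic shares fall from 62.0% in the weakest band to 16.4% at 20 to 40.

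The 2365 weaker distal peaks that did have an RA peak within 5 kb were of 2 kinds. An RA peak overlapped 1269 of them. For the other 1096 the RA peak lay within 5 kb without overlapping, and in 91.2% of these the nearest RA peak overlapped a different control peak. In height the second kind was close to the missing sites. Their median fold enrichment over IgG was 4.45 and their median summit pileup, the number of fragments at the highest point, was 22.7. The missing sites had medians of 4.54 and 22.7. Overlapped peaks were higher, with 5.19 and 27.6.

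Among the missing sites the pileup ranged from 12.8 to 57.3, with quartiles of 18.8 and 26.7. The fold ranged from 2.31 to 7.93 with quartiles of 3.81 and 5.31, and the median -log10 p was 9.49. The local IgG level recovered from the fold had a median of 4.00 fragments in the missing and in the overlapped sites alike. Missing sites were narrow, with a median length of 387 bp against 542 bp for overlapped peaks. Width differed within bands of equal strength as well. At a -log10 p of 15 to 20 the medians were 446 bp and 618 bp, while the folds were 6.42 and 6.26. At 7 to 10 the lengths were 376 bp and 476 bp and the folds 4.30 and 4.15.

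The lower depth of the RA pool was set against these values. When the control pileup and IgG level were scaled to 72.0%, the RA depth on the pileup scale, 1742 of the 2019 sites (86.3%, 84.7 to 87.7) still passed the calling cutoff of 1e-05, with a median -log10 p of 7.27. The other 277 would not have been called in the control at that depth. Of the overlapped peaks, 1228 (96.8%) passed. At distal pairs with a -log10 p of at least 40 in the control, the RA pileup was in the median 65.2% of the control pileup (630 pairs, quartiles 56.7 and 73.0). That is 90.6% of the depth-scaled control. With this measured ratio in place of the depth, 1370 missing sites (67.9%) passed and 649 did not. The ratio was 60.8% at distal pairs between 20 and 40 and 52.7% at promoter pairs of at least 40. It was 69.6%, or 96.7% of the depth-scaled control, at the 1269 weaker distal pairs, which are weak sites that were called in both lists. No single ratio described the RA pool. Depth and the yield of the single RA pool cannot be told apart from an effect of RA.

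**Figure D2:**
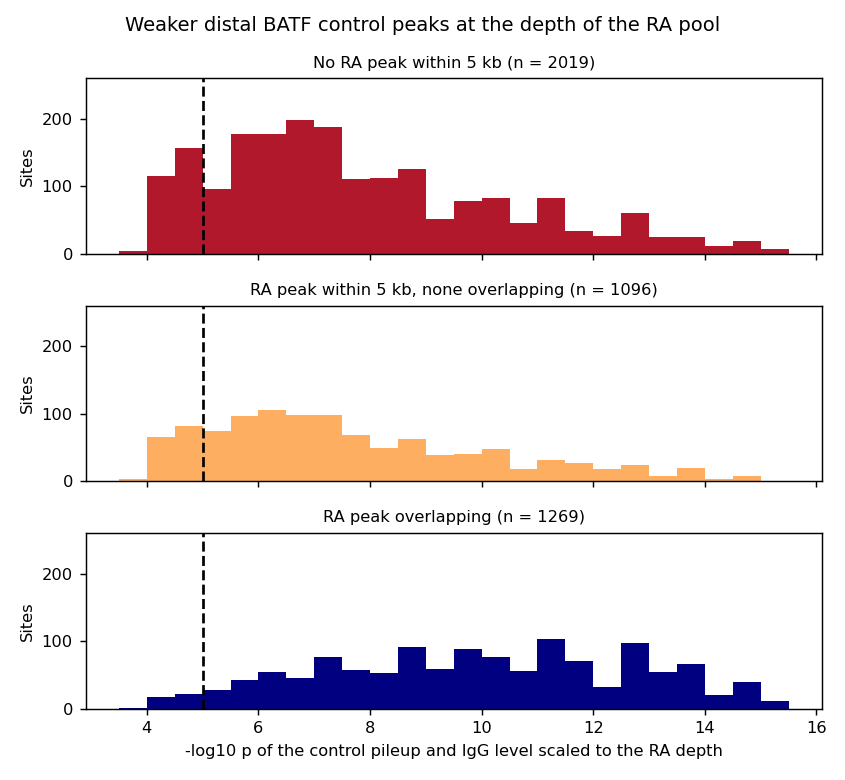
Number of weaker distal BATF control peaks (y) by the -log10 p that their control pileup and IgG level give when scaled to the RA depth (x), for peaks without an RA peak, with one nearby and with one overlapping. The dashed line is the calling cutoff of 5, and 1742 of 2019, 945 of 1096 and 1228 of 1269 peaks lie at or beyond it.

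An uncalled site is not an unbound site, and the RA signal itself was not used here. The cutoff still bounds it. At the scaled IgG level, the largest RA pileup that would have gone uncalled was in the median 74.1% of the depth-scaled control pileup. It was under 50% of it at 49 sites (2.43%) and under 75% at 1025 (50.8%). At 117 sites (5.79%) the bound was 100% or more, so the missing call there is compatible with no fall at all. The bound takes the control pileup as exact and leaves out counting error, at sites chosen for a control call without an RA call. A missing call at the other sites therefore does not by itself show a fall either. The caller's minimum length, 231 bp in the RA list, can also drop a site whose pileup passes.

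The lowest bounds belong to the strongest members. Of the 10 members of smallest p, all had 30 to 32 fragments in the control and a fold of 7.48 to 7.93, and none could have held more than 10 fragments with RA and gone uncalled by p. They lie in introns of Tox, Zfp608, Lpcat3, Man2a1, Fto, Ptpn14 and Ttc28 and between genes. Tox, a nuclear factor of exhausted T cells, had its site in intron 1 at chr4:6901984-6902424 in mm10. It held 32 fragments with a fold of 7.48, and its RA bound was 44.0% of the depth-scaled pileup. The other control peak of Tox, at chr4:6924809-6925097 in the same gene, had an RA call, and that RA peak lies 22359 bp from the missing site. It held 31 fragments with a fold of 5.95 in the control, and 24 with a fold of 6.25 in the RA peak. Lpcat3 encodes an enzyme of membrane phospholipid remodelling, and its site in intron 1 at chr6:124694159-124694477 also had 32 fragments. Fto encodes an RNA demethylase, and its site in intron 8 at chr8:91545657-91545925 had 30 fragments and lay 231908 bp from the nearest RA peak.

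The limits of the rule cut through a continuum. Tox, Lpcat3 and Zfp608 lie just under a -log10 p of 20. Just outside it, and missing with RA as well, were peaks in introns of F2rl1 and Adora2a, both with 20.2, and 1 near Ccdc124 with 20.1. On distance, the closest members lie 5007, 5007 and 5012 bp from an RA peak. The nearest peaks that failed the rule lie 4972 bp (Fam65b), 4933 bp (Hectd2) and 4932 bp (Foxp1) from one. Over all members the distance to the nearest RA peak had a median of 23070 bp and quartiles of 10360 and 58514 bp. For 484 members (24.0%) it was 5 to 10 kb, and for 296 (14.7%) it was over 100 kb.

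RARα occupancy was not used to choose the sites. Of the members, 114 (5.65%, 4.72 to 6.74) had a RARα control peak within 5 kb. The share was 10.5% over all weaker distal peaks and 7.16% over all BATF control peaks. Such a peak lay near 161 overlapped weaker distal peaks (12.7%, 11.0 to 14.6) and 184 with a neighbouring RA peak only (16.8%, 14.7 to 19.1). A RARα control peak overlapped 67 members (3.32%, 2.62 to 4.19), 119 of the peaks overlapped by an RA peak (9.38%, 7.89 to 11.1) and 34 of those with a neighbour only (3.10%, 2.23 to 4.30). The share overlapped by RARα was 5.02% over all weaker distal peaks and 3.92% over all BATF control peaks. Among missing weaker promoter peaks 11 of 2221 overlapped RARα (0.495%). Members had the lower share than overlapped peaks in each strength band. At a -log10 p of 7 to 10 it was 1.63% of members against 7.98% of overlapped peaks, and at 10 to 15 it was 4.38% against 9.03%. The intervals of the bands 5 to 7 (2.37% and 5.71%) and 15 to 20 (7.08% and 11.1%) overlapped. Overlapped peaks were also wider, and within 5 kb the shares at 7 to 10 were 3.66% and 11.3%. The rule bars members from lying within 5 kb of a BATF RA peak, so the 5 kb shares are not on equal terms. The part of width in the difference was not tested. All lists share the IgG file.

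**Figure D3:**
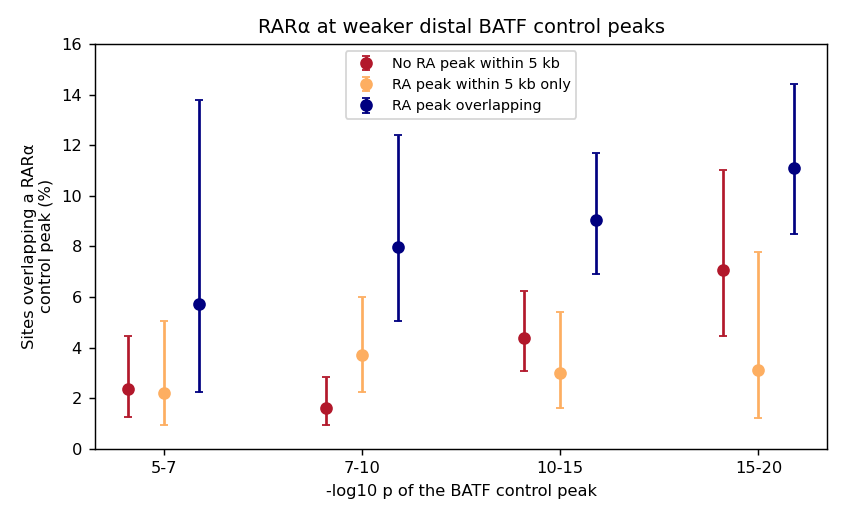
Share of weaker distal BATF control peaks that overlap a RARα control peak (y, %) by band of -log10 p of the BATF peak (x), with Wilson 95% intervals for counting error. Peaks overlapped by an RA peak lie highest in each band, for example 7.98% against 1.63% of the peaks without an RA peak at 7 to 10.

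The 67 members on RARα peaks had a median BATF fold of 5.14, against 4.54 for all members, and the RARα peaks had a median fold of 3.42 and a median -log10 p of 5.67, with 40 of the 67 at 5 or more. At the 119 overlapped peaks the median RARα fold was similar, 3.35. With RA, a RARα peak overlapped 3 of the 67 members and 11 of the 119. Over all members, 6 had a RARα RA peak within 5 kb (0.297%), against 21 of the overlapped peaks (1.65%). The share was 0.958% over all weaker distal peaks and 0.841% over all BATF control peaks.

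The 4 members of smallest p on a RARα peak are described here, and a shared function of their genes was not tested. The next included sites in introns of Rpa1, Zfp608 and Mgll. Fyn, a Src kinase below the T cell receptor, had one in an intron at chr10:39486370-39487303 with 36 BATF fragments and a fold of 6.09. The RARα peak inside it held 19 fragments with a fold of 4.02. Prkca, a protein kinase C, had an intronic site at chr11:108222722-108223440 with the same BATF count and fold, and a RARα peak of 23 fragments. Nck2, an adaptor for the actin cytoskeleton, had one in intron 4 at chr1:43562207-43562601 with 31 BATF and 17 RARα fragments. At Ahi1 the site was intergenic, at chr10:20864958-20865277 inside an LTR repeat, with 34 and 15 fragments. None of these 4 had a RARα RA peak within 5 kb.

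RARα was still called with RA at 3 of the 67, where BATF was not called. One lies in an intron of Tg and is also assigned to Sla, an adaptor that lowers T cell receptor signalling. Its BATF peak at chr15:66825644-66826005 had 25 fragments and a fold of 4.62, and its RARα control peak had 29 fragments and a fold of 6.03. Its RA bound was 67.5% of the depth-scaled BATF pileup. Another, intergenic near Fam102a at chr2:32509226-32509636, had 17 BATF fragments and a RARα control peak of 29 fragments with a fold of 7.54. With a bound of 99.3%, BATF there may be nearly unchanged. The third, at chr10:93041490-93042365 with no gene assigned, had 27 BATF and 16 RARα fragments.

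Among 196 listed genes of T cell biology, 161 members were assigned to at least 1, out of 420 weaker distal peaks there (38.3%, 33.8 to 43.1). For the other weaker distal peaks the share was 46.9% (45.3 to 48.4). Over all weaker distal peaks it was 46.1%, the value to set beside each list below. The annotation names genes up to about 100 kb away and gave several genes for 772 members, so counts over genes share sites. Retained neighbours also matter here, since a site within 5 kb of a retained peak could not be a member.

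AP-1 and IRF genes had 12 members among 29 weaker distal peaks (41.4%, 25.5 to 59.3) at 7 of 18 genes. Batf3, a close relative of BATF, had 2 control peaks and both were members. Its peaks were in intron 2 at chr1:191102811-191103105, with 30 fragments and a fold of 7.90, and 14847 bp outside the gene at chr1:191123790-191124132, with 20 fragments and a fold of 5.37. Batf3 had no RA peak, like 23.8% of all genes named for a control peak, and the nearest lay 39076 bp from the intronic site. Irf4, the partner of BATF at composite elements, kept its promoter peak and the overlapping calls at 2 intergenic peaks. The site in its intron 7 at chr13:30760406-30761123, with 24 fragments and a fold of 4.94, was missing. Irf2, a factor of the interferon response, had 2 members, the stronger with 51 fragments 98123 bp from the gene.

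Effector and exhaustion factors had 20 members among 48 (41.7%, 28.8 to 55.7) at 11 of 23 genes. Prdm1, which encodes the effector regulator Blimp-1, had 3. The strongest lay 1186 bp from the gene at chr10:44529744-44530327 with 31 fragments and a fold of 5.45, and 2 were in intron 3 with 20 and 32 fragments. The site with 32 fragments stood on an IgG level of 11, so its fold was 2.72. Rbpj, the nuclear effector of Notch signalling, had a site 8997 bp from the gene with 30 fragments and a fold of 7.48, close in height to the Tox site. Ikzf3, the Ikaros family factor Aiolos, had 5 members of 12 control peaks and 2 RA peaks. Of these, 4 lay in introns 3, 5, 6 and 7 with 17 to 34 fragments. Zeb2, a factor of terminal effectors, had a member with 22 fragments that overlapped a RARα control peak. Runx3, a determinant of the CD8 lineage, had 2 members with 23 and 18 fragments, 5407 and 7920 bp from the nearest RA peak.

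Genes of memory and stemness had more members in number but a lower share, 28 of 92 weaker distal peaks (30.4%, 22.0 to 40.5) at 12 of 16 genes. Tcf7, which encodes TCF-1, had 3 of 15 control peaks as members. Those in intron 3 had 28 and 25 fragments, and the third was 65703 bp away with 16. Ets1 had 4 members of 25 control peaks and Foxp1 4 of 26, so most of their peaks had an RA peak nearby. Klf2, a factor of quiescence and trafficking, had 3 members 39538 to 45960 bp from the gene, at chr8:72279083-72279524 with 38 fragments, at chr8:72277347-72277610 with 29 and at chr8:72272505-72273102 with 21. The first 2 overlapped RARα control peaks. Ccr7 and Id3 each had a strongest member on a RARα control peak too, with 21 and 38 fragments.

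Cytotoxicity and cytokine genes had the lowest share of the 10 lists, 7 members among 30 weaker distal peaks (23.3%, 11.8 to 40.9). Ifng had none. Of its 6 control peaks, the promoter peak was missing and the 5 intergenic ones had an RA peak within 5 kb. Csf2, the gene of GM-CSF, had 1 control peak, a member of 32 fragments and a fold of 6.52 that lay 97037 bp from it. An RA peak elsewhere, 1 in all, was also assigned to Csf2. Gzmb and Gzmc, granule proteases, shared 1 member with 14 fragments, whose RA bound was 100% of the depth-scaled control. Fasl, a death ligand, had 2 members with 27 and 26 fragments.

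Inhibitory and costimulatory receptors had the highest, 16 of 28 weaker distal peaks (57.1%, 39.1 to 73.5), with an interval that includes the 46.1% of all weaker distal peaks. Ctla4, an inhibitory receptor, had 4 members of 8 control peaks, with 25, 21, 26 and 19 fragments and folds from 3.33 to 5.06. Its neighbour Icos, a costimulatory receptor, was assigned 3 of the same sites. Tigit, an inhibitory receptor, had 3 of 6, with 24, 38 and 18 fragments. The tallest of these stood on a high IgG level, so its fold was 2.96. Entpd1, which encodes CD39, had 1 control peak, in intron 1 with 19 fragments. It had no RA peak, like 23.8% of all genes named for a control peak. Pdcd1 had 1 weaker distal peak, which had an RA peak within 5 kb, and Havcr2 had no control peak.

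Cytokine and chemokine receptors had 22 members among 59 (37.3%, 26.1 to 50.0). Tgfbr2, a chain of the TGF-β receptor, had 6 members of 10 control peaks and 4 RA peaks. In intron 1 and its surroundings the members held 18, 24 and 14 fragments, at chr9:116137641-116138034, chr9:116138828-116139113 and chr9:116139639-116139927. One in intron 4 held 15, and 2 outside the gene held 38 and 18. The promoter peak and a pair of intergenic peaks were overlapped with RA. At the first of that pair, chr9:116212047-116212561, the control and RA peaks both held 28 fragments, in pools of unlike depth. Their folds were 4.09 in the control and 7.48 with RA. Tgfbr1, the other chain, had no RA peak, like 23.8% of all genes named for a control peak. Its 5 control peaks were all missing, 2 of them members with 21 and 17 fragments at 33369 and 38637 bp from the gene and 3 of them at the promoter. Smad7, which inhibits the same pathway, had 4 members of 8 control peaks, with 16 to 34 fragments. Il2rb, a chain of the IL-2 receptor, had 3 members of 11, and the strongest, at chr15:78502222-78502967 with 26 fragments, overlapped a RARα control peak.

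Genes of the retinoid pathway had 13 members among 28 weaker distal peaks (46.4%, 29.5 to 64.2), close to the 46.1% of all weaker distal peaks. The members were at 9 of 26 genes, of which 13 had a BATF control peak. Rxra, the gene of the RARα partner, had 2 control peaks and both were members. They lie in intron 1 at chr2:27728485-27729234 with 43 fragments and a fold of 4.35, and at chr2:27693630-27694133 with 33 and 4.80. The nearest RA peaks were 212914 and 178059 bp away. Like 23.8% of all genes named for a control peak, Rxra had no RA peak. Rara itself kept most of its 12 control peaks near RA peaks, and its 1 member lies in intron 1 at chr11:98963391-98964123 with 28 fragments. The coactivator gene Ncoa2 had 2 members in introns 1 and 14, with 29 and 16 fragments. A weak member of Ncoa3, with 15 fragments, overlapped a RARα control peak.

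A list of signalling brakes, phosphatases and the NFAT and NF-κB factors had 26 members among 59 (44.1%, 32.2 to 56.7). Cblb, a ubiquitin ligase that restrains T cell receptor signals, had 3 in introns with 22, 21 and 21 fragments. Nfatc1, an activating factor downstream of calcium signals, had 4 members of 12 control peaks, with 17 to 33 fragments. Dusp10, a phosphatase for stress kinases, had 3 members of 5, the strongest with 46 fragments at chr1:184014175-184014415. The identity genes of CD8 T cells had 13 members among 36 (36.1%), including 5 at Cd2 and 3 shared by Cd8a and Cd8b1. Genes of other cell types had 4 among 11 (36.4%).

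**Figure D4:**
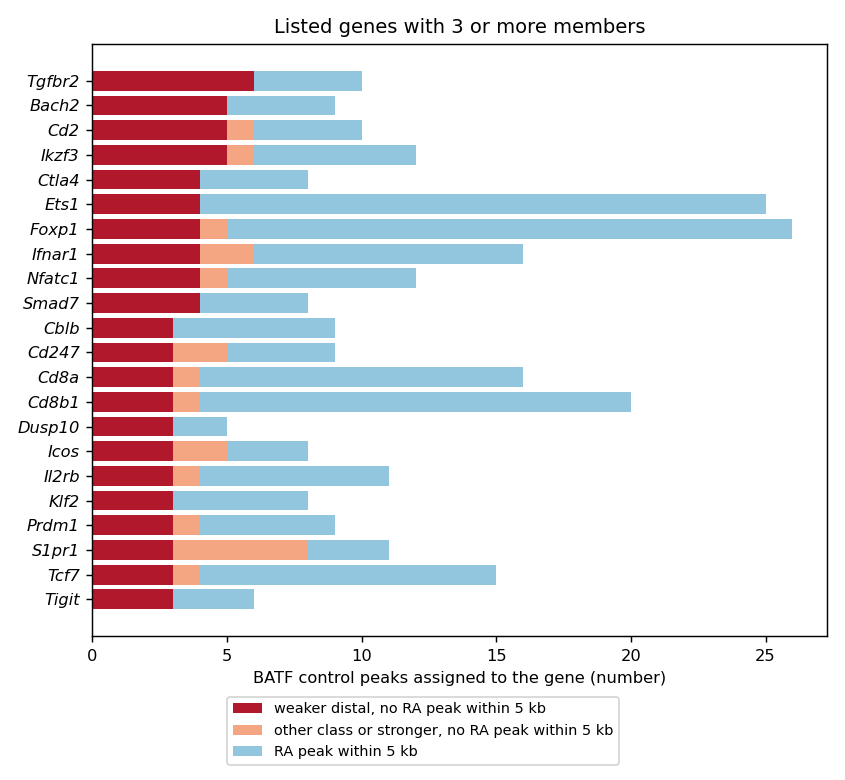
Number of BATF control peaks (x) assigned to each listed gene with 3 or more members (y). Bars split them into weaker distal peaks without an RA peak within 5 kb (the members), other peaks without one, and peaks with one. Tgfbr2 has 6 members of 10 control peaks, whereas Ets1 has 4 of 25 and Foxp1 4 of 26.

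Genes with the most members were picked out after their values were seen. Fyn led all 3301 genes named for a member, with 12 of its 16 control peaks. Of these, 10 lay inside the gene and 2 outside it, with 15 to 36 fragments and folds from 3.39 to 6.09. The gene's 4 other control peaks had RA peaks within 5 kb. Among them was an intronic peak at chr10:39479064-39479899 with 178 fragments and a fold of 17.7, whose RA peak held 121 fragments with a fold of 16.3. Of the 12 missing sites, 4 followed within 15 kb of that peak, and the nearest of these lay 6521 bp from its RA peak. The retained peak was several times taller than any of the missing sites around it.

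At Bach2, a repressor that keeps T cells quiescent, the 5 members assigned to it lie in the gene by RefSeq, although the annotation classed them as intergenic. They held 18 to 41 fragments with folds from 3.39 to 5.19, and the weakest, at chr4:32363690-32364279, overlapped a RARα control peak. Their nearest RA peaks lay 15195 to 43324 bp away. A further member, at chr4:32280863-32281853 with a fold of 7.2, lies in the span of the gene but was not assigned to it. Within 100 kb of the gene there were 22 control peaks, 8 of them members. The tallest peak there, at chr4:32587892-32588741 beyond the far end of the gene from the members, with a fold of 27.7, had an RA peak.

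**Figure D5:**
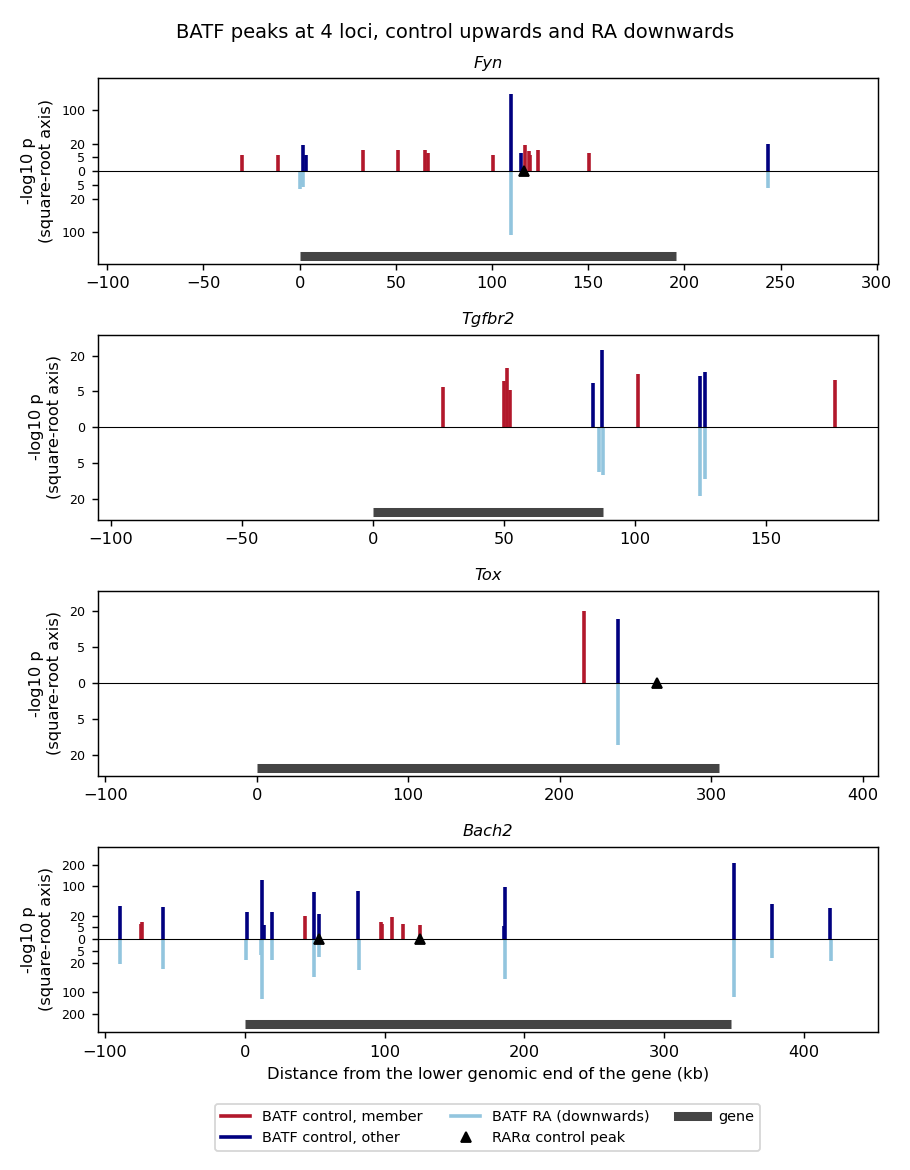
BATF peaks at Fyn, Tgfbr2, Tox and Bach2 within 100 kb of the gene, by distance from its lower genomic end (x, kb) and -log10 p on a square-root axis (y), control upwards and RA downwards. Grey bars are the gene, red lines the members and triangles the RARα control peaks. At Fyn 12 members surround a retained peak of -log10 p 156, and at Tox 1 of the 2 control peaks is a member.

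Some members stood near other BATF sites. Another BATF control peak lay within 5 kb of 567 members (28.1%, 26.2 to 30.1), and another member within 10 kb of 519 (25.7%). The overlapped peaks had another control peak within 5 kb in 45.4% and those with an RA neighbour only in 96.4%, but the rule bars members from lying near retained peaks, so these shares are not on equal terms. The 519 fell into 222 chains with steps of at most 10 kb, of which 18 had 4 or more members. The longest had 6, in Fam169b at chr7:68280017-68298561.

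A chain of 5 lay at chr14:54203726-54215772, which the annotation gave to Dad1 and Abhd4. By RefSeq this is the joining segment region of the T cell receptor alpha locus, which is rearranged in T cells. The 5 sites had 19 to 24 fragments and folds from 3.14 to 4.65. Ptprc, the gene of the phosphatase CD45, had a chain of 4 in intron 2 with 21, 30, 17 and 27 fragments, while 11 RA peaks were assigned to the gene. Ikzf1, the gene of Ikaros, had 6 members of 16 control peaks, 4 of them in intron 3 at chr11:11715999-11742562. These 4 held 34, 19, 21 and 35 fragments.

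At the level of genes, 1071 of the 3301 (32.4%, 30.9 to 34.1) had no BATF RA peak assigned, against 2834 of all 11910 genes named for a control peak (23.8%). The 3301 were selected for holding a missing peak, so nothing is read from this difference. For 126 genes, all control peaks were members, numbered 2 or more, and no RA peak was assigned. Lrrc32, which encodes the TGF-β docking protein GARP, was one, with 4 control peaks of 17 to 38 fragments. Of these, 2 overlapped RARα control peaks. The taller, at chr7:98564735-98565139, held 38 BATF and 25 RARα fragments, and the other, at the edge of the gene at chr7:98489094-98489374, held 18 and 15. The nearest BATF RA peaks lay 72505 to 166393 bp away. Cysltr2, a leukotriene receptor, had 4 members 38653 to 74727 bp from the gene with 15 to 27 fragments, and its nearest RA peaks were over 200 kb away.

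In position, 53.2% of members lay with their summit in the span of a protein-coding gene. By RefSeq spans of all genes, 64.9% of members were inside a gene, more than the 51.1% classed as intron. Repeats held 405 members (20.1%, 18.4 to 21.9), against 203 of the overlapped peaks (16%, 14.1 to 18.1) and 231 of those with an RA neighbour only (21.1%, 18.8 to 23.6). LTR elements held 145 members (7.18%) and 6.15% of the overlapped peaks, intervals that overlap. The names MTD, ORR1D2 and ORR1E each occurred at 10 members. In DNA transposons 36 of 57 weaker distal peaks were missing (63.2%, 50.2 to 74.5), the highest share of the 4 repeat classes examined, and in SINEs 114 of 274 (41.6%, 35.9 to 47.5). The share missing by chromosome ran from 38.3% on chromosome 15 to 56.8% on chromosome X, where only 37 weaker distal peaks were called.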

How the data were processed

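The authors aligned ChIP-seq reads with Bowtie2 to mm10, pooled 2 alignment files per list, called peaks against 1 IgG file with MACS 2.2.7.1 (cutoffs 1e-05 for BATF, 0.001 for RARα) and annotated them with HOMER, per the submitters' notes and the file headers. The deposited pileup is a signal in fragments at the summit, in steps of 0.9875 in the BATF control list. The deposited fold is a ratio, pileup plus 1 over IgG level plus 1. The deposited p-value and q-value are -log10 values, and q-values were not used in any comparison.

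IgG levels were recovered from the fold, and Poisson p-values recomputed from them matched the deposited ones within 0.00299 on the -log10 scale. Scaling to the RA depth used 72.0%. Fragment counts are the pileup divided by its step. Tables were made in Python 3.11.15 with pandas 2.3.3 and numpy 2.4.6, intervals with scipy 1.17.1 and plots with matplotlib 3.10.9. Gene positions came from RefSeq for GRCm38.p6 (mm10), where 99.8% of the 3301 gene names matched. Depth ranged from 11410673 fragments (IgG) to 23110180 (BATF control). Groups came from the sample titles.

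No test was run, since each condition has 1 list. The members and gene lists were chosen with earlier results of these data known. Named members were the 10 of smallest p, the 5 of largest fold, the 10 of smallest p on a RARα peak, those at listed genes and 3 on each side of each limit, and others are said to be picked later. Overlap and depth steps were tested on simulated data. Sequence was not analysed here. A few members at named genes are not reported here.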

Additional observations from a re-analysis of the deposited data

How the results depend on the processing

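No paired analysis was possible because each condition has 1 peak list called on pooled files. Of 35 recomputed values, 23 moved, 0 reversed and 12 stayed within the interval (for the fold the quartiles, for counts 1.5 times), and the cause was not tested beyond what each setting itself changes. The number of members was 3115 when only an overlap of at least 1 bp counted as an RA peak and 1117 with strength under 10. Within 1.5 times of 2019 it was 2811 at 1 kb, 1535 at 10 kb, 2166 with strength under 30, 1639 for control peaks of -log10 p at least 7 and 2287 for RA peaks of at least 7. The share missing, 46.1% as reported, was 71.1% with 1 bp overlap, 64.1% at 1 kb, 35% at 10 kb, 54.9% with strength under 10 and 42.5% under 30. It was 44.2% for control peaks of -log10 p at least 7, 52.2% for RA peaks of at least 7 and 51.0% with peaks within 1 kb merged. It was 44.5% after scaling to the RA depth and 41.9% with the ratio at strong distal sites. The share of members near RARα, 5.65% as reported, was 9.57% with 1 bp overlap to RA peaks, 8.93% at 1 kb, 4.03% with strength under 10, 3.32% for overlapping RARα peaks and 2.72% for RARα peaks of -log10 p at least 5. For all peaks with an RA peak within 5 kb it was 14.6%, and 6.47% and 8.12% under the last pair of settings. It was 12.7% for overlapped peaks and 9.38% with both overlapping. The intron share was 64.9% by RefSeq spans, and the median fold 5.43 without the caller's constant. The ratio at strong distal sites and the 2 settings for overlapped peaks were chosen after seeing the data. Motif alternatives were not run, as sequence was not used here. Counting intervals leave out the spread between pools, which is unknown.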

Other observations

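Other genes with many members were also picked out after their values were seen, and are given as values only. Klf13, a Krüppel-like factor, had 6 members of 12 control peaks with 14 to 36 fragments, and the tallest lay 11979 bp from the nearest RA peak. Sema4b, a semaphorin, had 6 members with 14 to 27 fragments. All 7 of its control peaks were missing, although 1 RA peak was assigned to the gene, and 1 member overlapped a RARα control peak. Myh9, a non-muscle myosin heavy chain, had 6 members of 12 control peaks with 17 to 32 fragments. S1pr1, the receptor that guides T cell exit from lymph nodes, had 3 members with 26, 19 and 30 fragments, and 8 of its 11 control peaks were missing, 4 of them at the promoter. Ifnar1, a chain of the type I interferon receptor, had 4 members with 18 to 35 fragments, and 6 of its 16 control peaks were missing.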
